A study of Mus musculus with 12 samples.

Results

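Fatty acids are burned in mitochondria in a fixed order of steps. Acyl-CoA synthetases such as Acsl1 activate the fatty acid, the carnitine shuttle carries long chains across the mitochondrial membranes, and beta-oxidation then shortens the chain. The shuttle consists of the outer-membrane transferase Cpt1a, its rate-limiting enzyme, the inner-membrane carrier Slc25a20 and the inner-membrane transferase Cpt2. Each round of beta-oxidation begins with an acyl-CoA dehydrogenase chosen by chain length (Acadvl, Acadl or Acadm). For long chains, the trifunctional protein made of Hadha and Hadhb carries out the rest of the round. Etfdh passes the electrons of the dehydrogenases to ubiquinone of the respiratory chain.

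These 10 genes were described in cells of the Eµ-Myc line, a B cell lymphoma of mice with Myc driven by the immunoglobulin heavy chain enhancer. They were matched by symbol, and all 10 were among the 56748 gene IDs counted and the 13535 genes tested. Poly(A) RNA was sequenced in 12 libraries, 4 of cells taken from culture, 4 of cells sorted from lymph nodes of C57BL/6J mice on day 11 after spread through lymphatic vessels, and 4 of cells sorted from lymph nodes on day 18 after spread through the blood. These are named culture, lymphatic and hematogenous libraries. Each sample's label gives the same cell line and, also for the cells from culture, lymph node as tissue, so groups follow the titles. The sort gate is not stated. Route and day change together and cannot be told apart. The labels do not say whether replicates came from separate mice or cultures, so p-values measure the spread between these libraries, which may be technical.

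Assigned counts ran from 5286775 to 25302016 per library, of which the 10 genes took 0.0537% to 0.0819%. Their single-library counts ran from 56 for Slc25a20 to 7520 for Hadha. Depth differed by group, with mean assigned counts of 18130939 for lymphatic, 8995979 for culture and 9917598 for hematogenous libraries. The B cell markers Cd79a and Pax5 were present in every library. Cd79a ran over 412 to 503 CPM (counts scaled to a common library size) for culture, 285 to 532 for lymphatic and 445 to 502 for hematogenous samples. Pax5 ran over 508 to 570, 329 to 479 and 718 to 847 CPM in the same order. Other B cell markers were less even. Ms4a1 had means of 0.786, 17.1 and 78.7 CPM, Cd22 of 419, 210 and 408 CPM, Cd79b of 269, 482 and 630 CPM, and Ebf1 of 93.8, 75.2 and 162 CPM. Lymphatic 4 stood apart, with 14.3% of its counts in ribosomal protein genes against 7.06% to 8.94% in the other 11 libraries, and tests of the 10 genes that use the lymphatic group are given with and without it. The lymph node libraries also carried transcripts of other cells. In the same order of groups, the 9 T cell markers summed to 0 to 0.621, 18.4 to 73.7 and 4.97 to 14.3 CPM, with 9 of 9 called higher for lymphatic and 7 of 9 for hematogenous libraries against culture. The 9 macrophage and monocyte markers summed to 17.5 to 22.4, 30.9 to 68.4 and 28.2 to 34.2 CPM, with 4 of 6 tested called higher and 2 lower than culture for either route. Lyz2 carried much of that sum in the lymph node groups (means of 27.5 and 11.8 CPM), whereas Csf1r (8.52, 3.75 and 1.49 CPM) and Itgam (4.88, 0.533 and 0.808 CPM) had their highest means in culture. The 8 stroma and endothelium markers summed to 75.8 to 80.5, 80.1 to 114 and 139 to 167 CPM, nearly all of it Pecam1. Cdh5 had means of 1.89, 1.52 and 3.81 CPM. Col1a1, Col3a1, Pdpn, Lyve1 and Prox1 were at 0 in hematogenous libraries. Other marker sums had their highest means in culture, at 18.7 to 22.7 CPM for NK cells (Klrb1c almost alone), 11.6 to 17.5 for dendritic and 11.3 to 29.8 for erythroid cells, against at most 3.93, 12.0 and 14.1 CPM in lymph node libraries. Hbb-bt made up nearly all of the erythroid sum in culture (mean of 17.1 CPM). Hba-a1, Hbb-bs and Alas2 had higher means in both lymph node groups than in culture. So did Prf1, Gzma and Eomes of the NK cell and Siglech and Clec9a of the dendritic markers, with means of at most 0.636 CPM. Neutrophil markers summed to at most 1.60 CPM. Cd3d, Trbc2, Cd4, Cd8a, Cd5, Lyz2, C1qa and C1qb had 0 counts in culture. The part of these cells in the results on the 10 genes was not tested. In bulk RNA, fewer cells of a type and less RNA per cell cannot be told apart.

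Levels can be set against each other only per length, as TPM (counts per transcript length, scaled to a common sum). In culture, Hadha stood highest at 106 ± 5.23 TPM (SD, n = 4), clear of Hadhb at 69.9 ± 2.21, Acadm at 68.0 ± 3.19 and Acadl at 66.8 ± 3.07 TPM, whose ranges overlapped from each to the next. Etfdh followed at 46.4 ± 2.71 TPM. The lower group held Acadvl at 17.6 ± 1.94, Cpt2 at 17.1 ± 1.10, Cpt1a at 13.7 ± 1.59, Acsl1 at 11.5 ± 1.03 and Slc25a20 at 9.63 ± 1.45 TPM. The shuttle genes, Acsl1 and Acadvl thus lay below Hadha, Hadhb, Acadm, Acadl and Etfdh. In lymphatic libraries the order was similar, with Hadha at 134 ± 35.1 and Hadhb at 110 ± 26.5 TPM on top, their ranges overlapping. Hadha ran from 81.5 to 156 TPM there, across the culture range of 101 to 112 TPM. As TPM, unlike the CPM given below, lymphatic Acadm and Etfdh also overlapped culture. In hematogenous libraries Cpt1a ranked 4 of 10 by mean, at 77.9 ± 18.3 TPM, with a range that overlapped those of Hadhb above it and Etfdh below it. Slc25a20 ranked 7 at 31.8 ± 11.6 TPM there, and Acsl1 was lowest at 7.41 ± 0.580 TPM.

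The genes split by route rather than moving as a block. In hematogenous libraries the shuttle genes Cpt1a and Slc25a20 rose severalfold from culture, with smaller rises of Acadl and Etfdh and a fall of Acsl1. In lymphatic libraries the called rises lay in Hadha, Hadhb and Acadm, and the shuttle was not called. Etfdh was not part of this split. Its lymphatic change of log2 0.34 was not called, but it did not differ detectably between the routes (edgeR adjusted p = 0.636). With lymphatic against culture, 3 of the 10 were called higher and 0 lower (edgeR, adjusted p under 0.05), where 26.4% of all tested genes were called, 13.4% higher and 13.0% lower. With hematogenous against culture, 4 were higher and 1 lower, where 27.8% of all tested genes were called, 13.9% each way. Median log2 changes were 0.25 for the 10 genes against 0.04 for all tested genes in lymphatic libraries. In hematogenous libraries they were 0.18 against −0.00075. These comparisons share the culture libraries. Between the routes, 4 of the 10 stood higher and 3 lower on the lymphatic side, where 22.3% of all tested genes were called, 11.4% higher and 10.9% lower, with a median of 0.10 against 0.03.

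**Figure D1:**
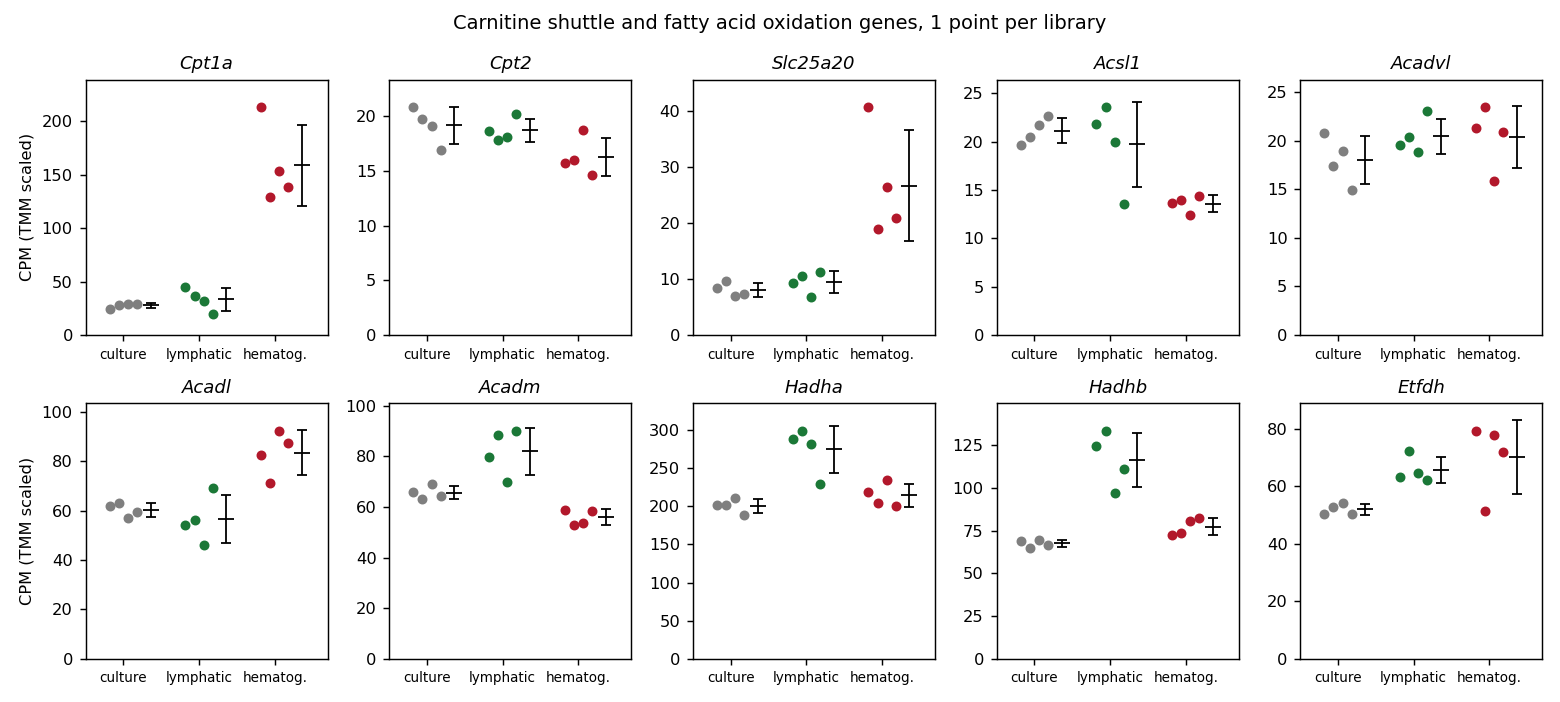
CPM of the 10 genes in each library (points) with group mean and SD (bars), on axes that start at 0. Cpt1a lies between 129 and 213 CPM in hematogenous libraries and at 45.2 or below elsewhere, while Hadhb is highest in the lymphatic group.

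**Figure D2:**
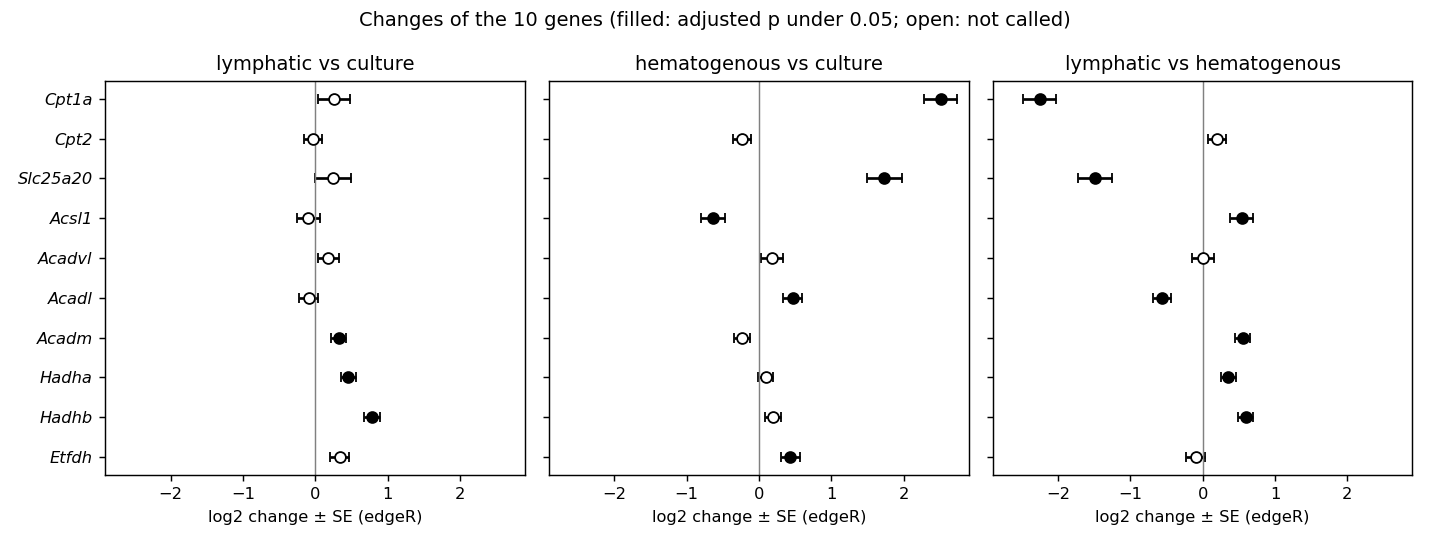
Log2 changes ± SE of the 10 genes in the 3 comparisons from edgeR, filled where the adjusted p is under 0.05. Cpt1a (2.51) and Slc25a20 (1.73) show the largest changes against culture, both in hematogenous libraries.

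Cpt1a, which forms acylcarnitines at the outer membrane, was the most changed gene of the 10. It measured 24.3, 28.3, 29.2 and 29.5 CPM for culture 1 to 4, 45.2, 36.7, 31.5 and 19.9 for lymphatic 1 to 4, and 213, 129, 154 and 138 for hematogenous 1 to 4. All hematogenous libraries lay above all others, whereas lymphatic and culture libraries overlapped, with lymphatic 4 below every culture library. The rise in hematogenous libraries was log2 2.51 ± 0.228 (SE), or 5.71-fold (edgeR adjusted p = 1.76e-06). In lymphatic libraries the change was 0.26 ± 0.219 (edgeR adjusted p = 0.413), and without lymphatic 4 it was 0.44 and called (adjusted p = 0.0452), but 0.082 without lymphatic 1. The difference between routes was −2.25 ± 0.223, lymphatic minus hematogenous (edgeR adjusted p = 3.29e-05), and −2.08 without lymphatic 4. Pecam1, which B cells also express, was highest in the hematogenous group too. It ran over 136 to 163 CPM there, against 72.5 to 78.4 for culture and 79.1 to 114 for lymphatic samples. The stroma and endothelium marker Cdh5 was highest there as well. It ran over 2.44 to 4.98 CPM, against 1.61 to 2.08 for culture and 0.716 to 2.30 for lymphatic samples. The link of both to the shuttle genes was not tested. The isoforms of Cpt1a in muscle and brain, Cpt1b and Cpt1c, were too scarce to be tested. Their single-library levels were at most 1.02 and 1.18 CPM, so the CPT1 transcripts here were nearly all Cpt1a.

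Slc25a20, the carrier that exchanges acylcarnitine for free carnitine, moved in the same direction. Its level was 8.39, 9.71, 6.97 and 7.35 CPM for culture 1 to 4, 9.38, 10.6, 6.85 and 11.3 for lymphatic 1 to 4, and 40.7, 18.9, 26.4 and 20.9 for hematogenous 1 to 4. Hematogenous libraries again lay above all others, and hematogenous 1 was the highest for this gene and for Cpt1a. The rise from culture was log2 1.73 ± 0.245, or 3.32-fold (edgeR adjusted p = 0.000107). In lymphatic libraries the change was 0.24 ± 0.244 (edgeR adjusted p = 0.498), and 0.16 without lymphatic 4 or 0.37 without lymphatic 3. Lymphatic minus hematogenous was −1.49 ± 0.236 (edgeR adjusted p = 0.000722), and −1.58 without lymphatic 4.

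Cpt2, which hands the acyl group back to CoA inside the mitochondrion, was not called in any comparison. It ranged from 16.9 to 20.8 CPM for culture, 17.8 to 20.2 for lymphatic and 14.6 to 18.8 for hematogenous samples. Its changes were −0.04 ± 0.124 and −0.23 ± 0.126 from culture in lymphatic and hematogenous libraries (edgeR adjusted p = 0.861 and 0.199), the former −0.083 without lymphatic 4. Lymphatic minus hematogenous was 0.20 ± 0.124 (edgeR adjusted p = 0.270), and 0.15 without lymphatic 4. The ratio of Cpt1a to Cpt2 counts within a library does not depend on scaling between libraries. It was 1.47 ± 0.241 for culture, 1.80 ± 0.613 for lymphatic and 9.83 ± 2.57 for hematogenous samples (SD, n = 4 each). All hematogenous ratios, from 8.11 to 13.6, lay above all others, which ran from 0.983 to 2.42. In an exact two-sided permutation test of log2 ratios, hematogenous against culture and against lymphatic libraries each gave p = 0.0286, the smallest possible with 70 arrangements, and 0.0857 after adjustment over 9 such tests. Lymphatic minus hematogenous was −2.49 on the log2 scale, and −2.22 without lymphatic 4.

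The promoter windows of the genes that moved most are shown because the routes separate on them. They come from RefSeq (GRCm38.p6, an older build than the GRCm39 of the counts) and run from 250 bases before to 50 after a start site, 5′ to 3′ on the gene's strand. Hadha and Hadhb stand head to head on chromosome 5, with start sites 273 bases apart, so 228 bases of their windows are shared and a single window is printed for the pair. The Hadhb window is chr5:30155003-30155302 on the plus strand, that of Cpt1a is chr19:3323051-3323350 on the plus strand, and that of Slc25a20 is chr9:108661886-108662185 on the plus strand. Capitals mark matches to the GC box GGGCGG on either strand (CCGCCC on the other). Of those in the Hadhb window, only the box at −90 to −85 from its start site lies whole within the Hadha window.
Hadhb: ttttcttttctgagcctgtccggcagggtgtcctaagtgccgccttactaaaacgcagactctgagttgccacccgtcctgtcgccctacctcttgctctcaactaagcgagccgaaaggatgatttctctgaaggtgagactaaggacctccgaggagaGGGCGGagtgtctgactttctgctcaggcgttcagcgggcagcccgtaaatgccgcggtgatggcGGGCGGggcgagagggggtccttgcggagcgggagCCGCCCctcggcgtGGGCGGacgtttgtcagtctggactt
Cpt1a: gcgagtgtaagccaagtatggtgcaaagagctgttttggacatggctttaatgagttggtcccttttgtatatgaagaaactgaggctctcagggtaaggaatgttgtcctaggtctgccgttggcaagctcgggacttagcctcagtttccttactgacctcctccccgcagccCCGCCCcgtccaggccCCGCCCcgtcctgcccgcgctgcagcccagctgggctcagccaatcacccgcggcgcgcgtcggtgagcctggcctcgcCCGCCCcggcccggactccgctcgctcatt
Slc25a20: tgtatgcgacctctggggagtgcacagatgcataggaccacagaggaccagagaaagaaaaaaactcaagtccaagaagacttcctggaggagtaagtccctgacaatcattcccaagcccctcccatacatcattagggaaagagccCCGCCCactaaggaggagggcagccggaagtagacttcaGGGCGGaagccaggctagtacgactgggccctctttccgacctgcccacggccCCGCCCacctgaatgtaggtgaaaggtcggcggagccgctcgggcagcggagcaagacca

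A GC box was found in windows of 8 of the 10 genes, and in 35.7% of all 32851 RefSeq promoter windows of this length. The 2 without it were Acadvl and Acadm. G and C made up 62.3% of the Cpt1a window, 60.7% of that of Hadhb and 58.0% of that of Slc25a20, against a median of 52.7% over all windows. The full PPAR element, a direct repeat of the nuclear receptor site with 1 base between, was in 0 of the 11 windows of the 10 genes and in 0.0396% of all windows. The single repeat AGGTCA, read on both strands, was in the windows of Cpt1a, Acadvl and Acadm, against 16.3% of all windows. The E-box CACGTG, the site of MYC and related factors, was in 0 of the 11 windows and in 7.15% of all windows. The palindromic NRF1 consensus site was found in the window of Etfdh, and in 0.971% of all windows. These are letter matches in these windows and carry no evidence of binding.

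Acsl1, a synthetase that activates long-chain fatty acids, was lower in hematogenous libraries. It measured 19.7, 20.5, 21.8 and 22.6 CPM for culture 1 to 4, 21.9, 23.6, 19.99 and 13.5 for lymphatic 1 to 4, and 13.6, 14.0, 12.4 and 14.4 for hematogenous 1 to 4. Lymphatic 1 to 3 lay near culture and lymphatic 4 within the hematogenous range. Against culture the hematogenous libraries fell by 0.64 ± 0.164 on the log2 scale (edgeR adjusted p = 0.00907), with no overlap of the groups. In lymphatic libraries the change was −0.10 ± 0.159 (edgeR adjusted p = 0.693), and 0.04 without lymphatic 4. The difference between routes was 0.54 ± 0.162 (edgeR adjusted p = 0.0285) and 0.68 without lymphatic 4. That call was lost without lymphatic 1 or 2 or any hematogenous library (adjusted p = 0.0520 to 0.0834), and also by limma-voom, without a filter, in a fit of the routes alone and with the replicate number as a block (0.0508 to 0.0866).

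Among the dehydrogenases, the routes differed for Acadl and Acadm, in opposite directions, and not detectably for Acadvl. Acadl, which acts on long chains, measured 61.9, 63.1, 57.0 and 59.4 CPM for culture 1 to 4, 54.4, 56.4, 46.1 and 69.4 for lymphatic 1 to 4, and 82.8, 71.1, 92.4 and 87.6 for hematogenous 1 to 4. Hematogenous libraries lay above all others, and lymphatic libraries spread to both sides of culture. Acadl rose by log2 0.47 ± 0.130 in hematogenous libraries (edgeR adjusted p = 0.0146), a call lost without hematogenous 3 (log2 0.42, adjusted p = 0.0513). Its change in lymphatic libraries was −0.09 ± 0.129 (edgeR adjusted p = 0.643), −0.21 without lymphatic 4 and −0.0059 without lymphatic 3. Lymphatic minus hematogenous was −0.56 ± 0.129 (edgeR adjusted p = 0.00741), or −0.68 without lymphatic 4.

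Acadm, the medium-chain enzyme, measured 66.0, 62.9, 69.1 and 64.5 CPM for culture 1 to 4, 79.5, 88.5, 69.9 and 90.0 for lymphatic 1 to 4, and 58.8, 52.8, 53.6 and 58.4 for hematogenous 1 to 4. The 3 groups did not overlap, with lymphatic highest and hematogenous lowest. The difference between routes was log2 0.55 ± 0.105 (edgeR adjusted p = 0.00230), and 0.50 without lymphatic 4. Against culture the rise in lymphatic libraries was 0.32 ± 0.105 (edgeR adjusted p = 0.0361) and 0.27 without lymphatic 4, and the hematogenous change of −0.23 ± 0.106 was not called (edgeR adjusted p = 0.124). The lymphatic call was lost without any culture library, lymphatic 1 or 2 or hematogenous 1 or 3 (adjusted p = 0.0522 to 0.102), and without a filter, in a fit of the compared groups alone, with the replicate block and without lymphatic 4 and culture 4 together (0.0707 to 0.159). The hematogenous change was called without lymphatic 4 (−0.23, adjusted p = 0.0395) and in a fit of the compared groups alone (adjusted p = 0.0165).

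Acadvl, the very-long-chain enzyme at the inner membrane, ranged from 14.9 to 20.8 CPM for culture, 18.8 to 23.0 for lymphatic and 15.8 to 23.4 for hematogenous samples. Its changes from culture were 0.18 ± 0.150 and 0.17 ± 0.152 (edgeR adjusted p = 0.407 and 0.447), the former 0.11 without lymphatic 4 or without culture 4. Lymphatic minus hematogenous was 0.01 ± 0.149 (edgeR adjusted p = 0.983), and −0.063 or −0.064 without lymphatic 4, with culture 4 left out or kept. In the older annotation used here, 42.9% of its annotated exon bases overlap exons of Dvl2 on the opposite strand, and the strand setting of the counting is not given in the sources used here. Dvl2 fell from 36.8 ± 3.63 to 14.3 ± 4.69 and 15.8 ± 2.605 CPM in lymphatic and hematogenous libraries, and its part in the Acadvl counts was not tested. The ratio of Acadl to Acadvl counts was 3.40 ± 0.489 for culture, 2.75 ± 0.232 for lymphatic and 4.24 ± 1.18 for hematogenous samples (SD, n = 4 each). Between the routes the groups did not overlap, if barely (highest lymphatic 3.017, lowest hematogenous 3.032; exact permutation p = 0.0286, adjusted 0.0857). The log2 difference was −0.59, and −0.63 without lymphatic 4.

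The trifunctional protein genes were highest in lymphatic libraries. Hadha, the alpha subunit with the hydratase and hydroxyacyl-CoA dehydrogenase activities, measured 202, 202, 211 and 189 CPM for culture 1 to 4, 289, 299, 282 and 230 for lymphatic 1 to 4, and 219, 204, 234 and 201 for hematogenous 1 to 4. Lymphatic libraries lay above culture, and lymphatic 4 fell within the hematogenous range. Hadhb, the beta subunit with the thiolase activity, measured 69.1, 65.0, 69.6 and 66.3 CPM for culture 1 to 4, 124, 133, 96.9 and 111 for lymphatic 1 to 4, and 72.5, 73.4, 80.7 and 82.3 for hematogenous 1 to 4. Its 3 groups did not overlap, and culture was lowest.

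Against culture, Hadhb rose 1.72-fold (log2 0.79, edgeR adjusted p = 0.000148) and Hadha 1.37-fold (log2 0.45, edgeR adjusted p = 0.00554) in lymphatic libraries. Without lymphatic 4 these changes were 0.80 and 0.52. In hematogenous libraries Hadhb changed by 0.19 ± 0.111 (edgeR adjusted p = 0.231) and Hadha by 0.10 ± 0.104 (edgeR adjusted p = 0.558), and the Hadhb change was called in a fit of the compared groups alone (adjusted p = 0.0382). Lymphatic minus hematogenous was 0.59 ± 0.1101 for Hadhb (edgeR adjusted p = 0.00200) and 0.36 ± 0.104 for Hadha (edgeR adjusted p = 0.0255), or 0.61 and 0.43 without lymphatic 4. The summed T cell and macrophage markers were also highest in the lymphatic group by mean. So were the single macrophage markers Lyz2, Cd68, Adgre1, Cd14, C1qa and C1qb, but not Csf1r, Itgam or Mrc1. The part of these cells in the Hadha and Hadhb rises was not tested. The Hadha call between routes was lost without lymphatic 1 or 2 or hematogenous 1, 2 or 4 (adjusted p = 0.0528 to 0.0796), without a filter (0.127) and in a fit of the routes alone (0.0851).

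The subunits of this protein assemble in equal number, so their count ratio was followed as well. The transcripts differ in length (2048 bases for Hadhb, 4017 for Hadha). The ratio was thus compared between groups only, and protein was not measured. Hadhb over Hadha counts was 0.343, 0.322, 0.330 and 0.352 for culture 1 to 4, 0.430, 0.446, 0.343 and 0.484 for lymphatic 1 to 4, and 0.331, 0.359, 0.345 and 0.409 for hematogenous 1 to 4. Lymphatic 3 lay within the culture range, and lymphatic 1, 2 and 4 above every other library. The log2 ratio was 0.33 ± 0.1095 higher in lymphatic than in culture libraries (SE, exact permutation p = 0.0571, adjusted 0.129), which did not pass the threshold, and 0.26 higher without lymphatic 4. Hematogenous and culture ratios differed by 0.10 ± 0.0723 (exact permutation p = 0.200, adjusted 0.257).

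**Figure D3:**
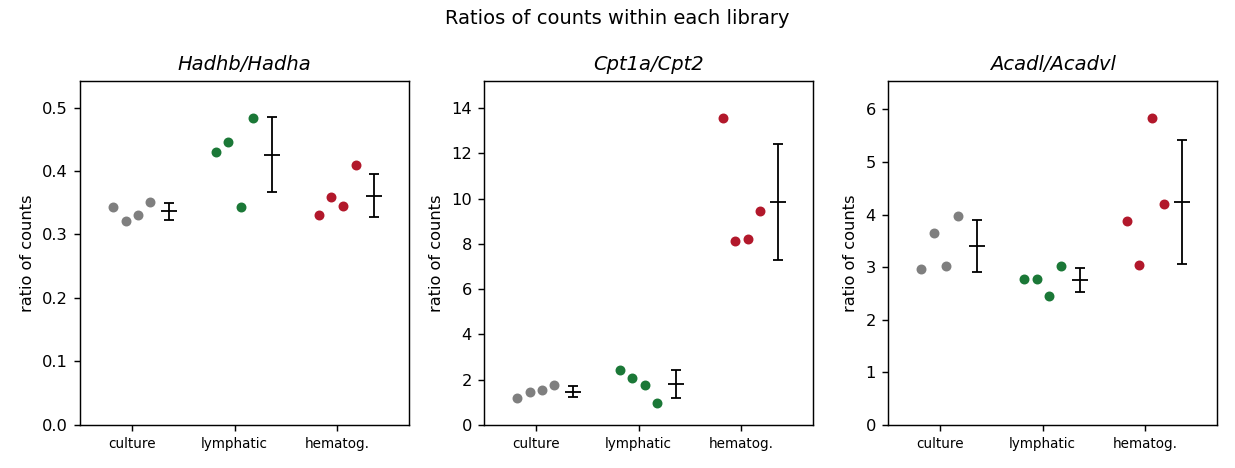
Ratios of counts within each library for Hadhb/Hadha, Cpt1a/Cpt2 and Acadl/Acadvl (points), with group mean and SD (bars) on axes that start at 0. Only for Cpt1a/Cpt2 is a group far from the others, the hematogenous libraries at 8.11 to 13.6.

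Etfdh, at the junction with the respiratory chain, was higher than culture in most lymph node libraries. It measured 50.2, 52.9, 54.3 and 50.3 CPM for culture 1 to 4, 63.2, 72.4, 64.5 and 62.3 for lymphatic 1 to 4, and 79.3, 51.5, 77.7 and 71.8 for hematogenous 1 to 4. Lymphatic libraries lay above culture, and hematogenous 2 within it. The hematogenous rise of 0.43 ± 0.131 was called (edgeR adjusted p = 0.0240) and the lymphatic change of 0.34 ± 0.131 was not (edgeR adjusted p = 0.0728). The routes differed by −0.09 ± 0.130 (edgeR adjusted p = 0.636), and by −0.076 without lymphatic 4. Without it the lymphatic change from culture was 0.36. The hematogenous call was lost without culture 1, 2 or 4 or hematogenous 1, 3 or 4 (adjusted p = 0.0526 to 0.0785) and with the replicate block (0.0582), and the lymphatic change was called without lymphatic 4 or hematogenous 2 (0.0332 and 0.0254).

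Counted by groups that do not overlap, 4 of the 10 genes (Acadm, Hadha, Hadhb and Etfdh) were higher in every lymphatic than in every culture library, against 14.6% of all tested genes (30.1% apart either way). For hematogenous libraries these were Cpt1a, Slc25a20, Acadl and Hadhb, against 21.9% of all genes, and Acsl1 and Acadm were lower in each, against 21.8% (43.7% either way). Between the routes Acadm and Hadhb were apart with lymphatic higher and Cpt1a, Slc25a20 and Acadl with hematogenous higher, against 11.5% and 13.1% of all genes (24.6% either way).

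A further list of 24 genes in or near mitochondrial oxidation, acyl-CoA synthetases included, moved both ways. Of these, 21 could be tested. In lymphatic libraries 5 rose and 3 fell from culture, where 26.4% of all tested genes were called. In hematogenous libraries 4 rose and 3 fell, where 27.8% were called, and the medians were log2 0.36 and 0.13. The 8 called in lymphatic libraries became 4 without culture 1, 2 or 4, and the 7 in hematogenous libraries became 12 without lymphatic 4. The falls were mainly in acyl-CoA synthetases. Acsl3 measured 168 ± 6.11 CPM in culture. It fell to 81.4 ± 12.98 CPM with the lymphatic route (log2 −1.05 ± 0.119, edgeR adjusted p = 2.41e-05) and to 55.6 ± 4.39 CPM with the hematogenous route (−1.60 ± 0.122, edgeR adjusted p = 3.52e-07). Acsl4, which prefers arachidonate, fell by 0.94 ± 0.153 and 1.45 ± 0.156 (edgeR adjusted p = 0.000481 and 8.89e-06). Acsl5 fell from 477 ± 16.3 to 322 ± 24.3 CPM in hematogenous libraries (−0.57 ± 0.0986, edgeR adjusted p = 0.000598). Between the routes all 3 were called, with lymphatic higher. Acsl5 and Etfa, below, were picked after their values were seen.

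Among the other genes of this list, Decr1, the dienoyl-CoA reductase needed for unsaturated chains, stood at 9.44 ± 0.802 CPM in culture. It rose to 14.8 ± 3.81 CPM with the lymphatic route (log2 0.65 ± 0.196, edgeR adjusted p = 0.0252) and to 25.7 ± 5.20 CPM with the hematogenous route (1.43 ± 0.199, edgeR adjusted p = 8.78e-05). The routes differed by −0.78 ± 0.190 (edgeR adjusted p = 0.00966). The mitochondrial thioesterase Acot2 went from 4.36 ± 0.835 to 11.9 ± 2.34 CPM in hematogenous libraries (1.43 ± 0.235, edgeR adjusted p = 0.000375), though it has a near-identical neighbour in its family that can share reads. Hsd17b10, a short-chain hydroxyacyl-CoA dehydrogenase, rose in both (0.88 ± 0.181 and 0.65 ± 0.182, edgeR adjusted p = 0.00271 and 0.0154), with lymphatic 4 at 93.0 CPM against 47.3 to 54.6 in lymphatic 1 to 3. Etfa, a subunit of the flavoprotein that feeds Etfdh, rose in lymphatic libraries (0.40 ± 0.123, edgeR adjusted p = 0.0264). Crat, which makes short acylcarnitines, fell in lymphatic libraries (−0.69 ± 0.209, edgeR adjusted p = 0.0266).

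**Figure D4:**
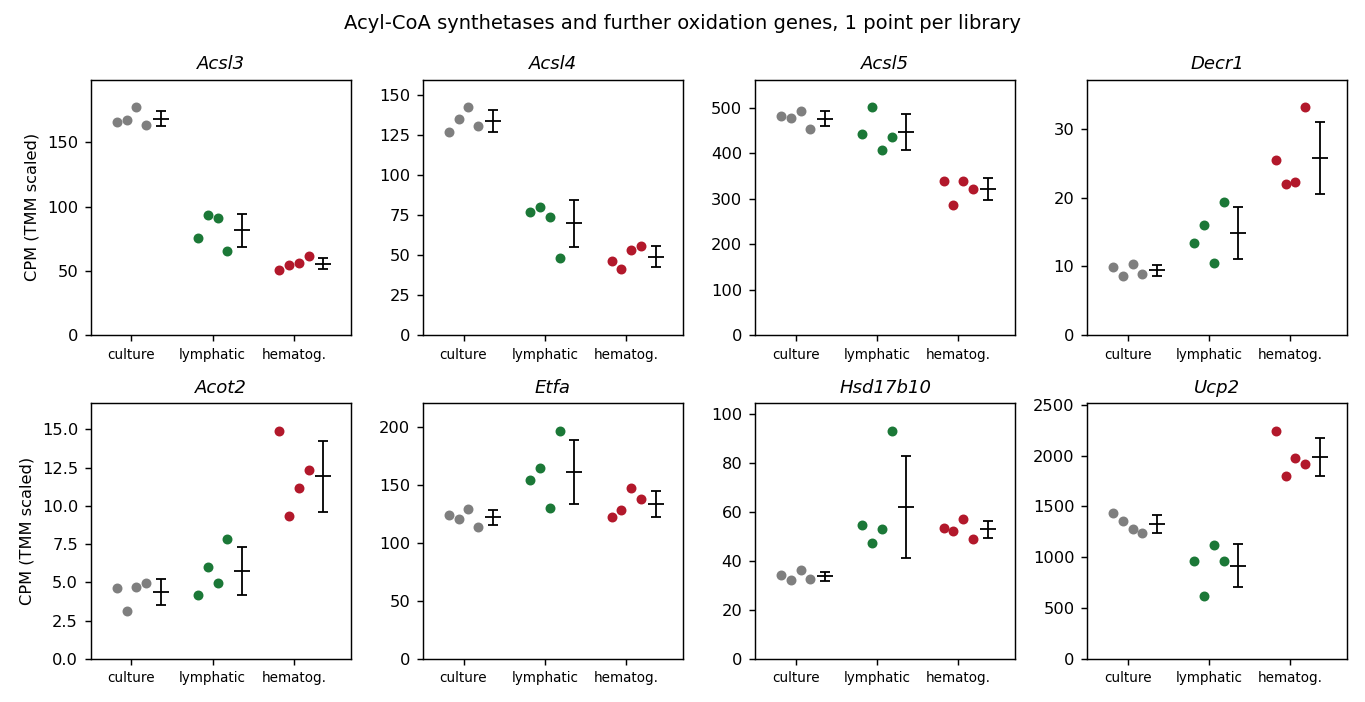
CPM of Acsl3, Acsl4, Acsl5, Decr1, Acot2, Etfa, Hsd17b10 and Ucp2 in each library (points), with group mean and SD (bars) on axes that start at 0. Acsl3 and Acsl4 step down from culture to the lymph node groups, and Decr1, Acot2 and Ucp2 are highest in hematogenous libraries.

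Regulators did not move as a block. Of 24 listed, 18 could be tested, and 2 rose and 4 fell in lymphatic and 4 rose and 3 fell in hematogenous libraries, with medians of log2 −0.02 and 0.01, where 26.4% and 27.8% of all tested genes were called. The 6 and 7 called became 11 and 12 without lymphatic 4. Ppara, the receptor that drives oxidation genes in liver, was below the testing limit, with 7, 7 and 2 counts in all of culture, lymphatic and hematogenous libraries. Ppard, its relative, fell from 18.7 ± 3.20 to 8.56 ± 2.36 and 7.51 ± 2.09 CPM (log2 −1.13 ± 0.236 and −1.30 ± 0.242, edgeR adjusted p = 0.00295 and 0.00105). The orphan receptor Esrra was at 21.7 ± 3.70 CPM in culture and 21.4 ± 10.6 in lymphatic libraries and fell to 8.32 ± 1.17 in hematogenous libraries (−1.36 ± 0.301, edgeR adjusted p = 0.00344). Angptl4, a secreted lipase inhibitor and known PPAR target, rose in lymphatic (0.58 ± 0.172, edgeR adjusted p = 0.0234) and fell in hematogenous libraries (−0.88 ± 0.179, edgeR adjusted p = 0.00196). The mitochondrial carrier Ucp2 went the other way, from 1326 ± 88.6 CPM to 915 ± 211 and 1985 ± 187 (−0.54 ± 0.154 and 0.58 ± 0.154, edgeR adjusted p = 0.0200 and 0.0111). Acacb, whose product malonyl-CoA inhibits Cpt1a, rose from 0.489 ± 0.227 to 2.105 ± 0.643 CPM in hematogenous libraries (2.02 ± 0.428, edgeR adjusted p = 0.00260). Acacb was named after its values were seen. In lymphatic libraries Foxo3, a transcription factor, fell from 53.1 to 27.3 CPM (−0.96 ± 0.130, edgeR adjusted p = 0.000102), and Nrip1, a corepressor of nuclear receptors, from 26.4 to 12.7 CPM (−1.05 ± 0.276, edgeR adjusted p = 0.0124).

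Transcripts of 20 genes listed for fatty acid uptake and release were also followed, of which 15 could be tested. Fatty acids and their uptake were not measured. In lymphatic libraries 1 rose and 2 fell, in hematogenous libraries 1 rose and 4 fell, where 26.4% and 27.8% of all tested genes were called. The 3 and 5 called became 5 and 8 without lymphatic 4. Fabp5, a fatty acid binding protein, fell from 478 ± 42.1 to 134 ± 11.4 CPM in hematogenous libraries (−1.83 ± 0.177, edgeR adjusted p = 3.33e-06) and differed between routes by 1.40 ± 0.175 (edgeR adjusted p = 0.000144). Cd36, the uptake receptor of muscle and fat, did not exceed 1.27 CPM in any library. The 6 adipocyte markers summed to at most 1.96 CPM in any library, with Lep and Cidec at 0 counts in all groups. In peroxisomes, 2 of 11 tested genes rose and 1 fell in lymphatic and 1 rose and 3 fell in hematogenous libraries, against the same shares of all genes. The 3 called in lymphatic libraries became 5 without lymphatic 3. The 4 in hematogenous libraries became 1 without culture 1 and 2 without culture 2 or 3 or hematogenous 1, 3 or 4. Scp2, the peroxisomal thiolase and sterol carrier, rose in both (0.44 ± 0.123 and 0.40 ± 0.123, edgeR adjusted p = 0.0162 and 0.0238). The acyl-CoA oxidase Acox3 fell in lymphatic libraries (−0.79 ± 0.193, edgeR adjusted p = 0.00781), where the enoyl-CoA reductase Pecr rose (0.59 ± 0.178, edgeR adjusted p = 0.0253). Hsd17b4, the bifunctional enzyme, fell in hematogenous libraries (−0.34 ± 0.101, edgeR adjusted p = 0.0224).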

How the data were processed

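The authors deposited unnormalized read counts for each gene, made with FastQC 0.11.9, Trimmomatic 0.39, HISAT2 2.1.0 and HTSeq 2.0.2 on GRCm39, per the submitters' processing notes. Reads were single-end from a stranded kit, per the labels' protocols. The 5 summary lines (30.3% to 36.5% of reads assigned to no gene) were dropped. Symbols, found for 91.8% of IDs, came from a gene name table, and transcript lengths for TPM and exon overlaps from GENCODE M21, an older build.

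CPM used TMM factors. Testing used edgeR 4.0.16 (R 4.3.3) with its quasi-likelihood F test after filterByExpr; the 12 libraries entered a single fit with group as factor, leaving 9 residual degrees of freedom, with Benjamini-Hochberg adjustment over the 13535 genes of a comparison, two-sided. SE is the change over the square root of F, which is approximate. Count ratios were compared by exact permutation. Alternatives were DESeq2 1.42.0, limma-voom 3.58.1, other scaling, no filter, fits of the compared groups alone, a replicate block, and leaving out libraries. The labels give no model. Scripts were tested on simulated data. Members and lists were chosen with earlier results of these data known. Named beside the members are up to 4 called genes per list and comparison with a mean of 10 CPM or more in the higher group, by size of change. Same-numbered libraries of different groups had correlations of deviations from −0.181 to 0.0919, 0 of 12 pairs over 0.1, so numbers were not taken as pairs. Some genes that this rule names are not reported here.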

Additional observations from a re-analysis of the deposited data

Results flagged for a closer look

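For 7 of the 10 genes the change from culture differed between lymphatic and hematogenous libraries, where 22.3% of all tested genes were called. This is the edgeR test of lymphatic minus hematogenous already given above, on the log2 scale, and not a further result. The difference was −2.25 for Cpt1a, −1.49 for Slc25a20 and −0.56 for Acadl, higher in hematogenous libraries. It was 0.54 for Acsl1, 0.55 for Acadm, 0.36 for Hadha and 0.59 for Hadhb, higher in lymphatic libraries. Route and day of collection cannot be told apart in this difference. None of 39 groups of 4 values (10 genes and 3 ratios in 3 groups) held a library far from the others by Dixon's test. With only 4 values in a group, that test flags only a very wide gap, so it cannot exclude a library that stands apart. It passed Hadha in lymphatic 4, at 230 CPM against 282 to 299 CPM in the rest of that group.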

How the results depend on the processing

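Of 15 calls on the 10 genes, none changed sign in 19 alternatives each, and 37 of 285 values missed the threshold, those of Acadm, Acadl, Etfdh, Acsl1 and Hadha given with the results. With the replicate block, 2, 4 and 6 of the 10 genes were called against 3, 5 and 7 for lymphatic and hematogenous against culture and between the routes, and 2960, 3341 and 2309 of all genes against 3569, 3760 and 3012. In fits of the compared groups alone, 6344 genes were called for hematogenous against culture and 1734 between the routes. Leaving out a library in turn, 2 to 5, 3 to 6 and 5 to 7 of the 10 genes were called, the 5 without lymphatic 4 and the 3 without hematogenous 3, and 2664 to 4908, 3125 to 5930 and 2002 to 4333 of all genes, with 5930 without lymphatic 4 and 2002 without hematogenous 1. Signs of values that were not called turned for Acsl1 in lymphatic libraries (0.076 without lymphatic 4 and culture 4, and −0.20 to 0.042 leaving out a library, the latter without lymphatic 4), Cpt2 in lymphatic libraries (−0.085 to 0.0076, the latter without culture 1), and Acadvl between routes (−0.0018 by DESeq2, −0.063 without lymphatic 4 and culture 4, and −0.10 to 0.080 leaving out a library, negative without lymphatic 4 or hematogenous 3). Leave-one-out log2 ratio differences ran from 2.56 to 2.81 for Cpt1a/Cpt2 in hematogenous against culture, −2.66 to −2.22 between routes, and −0.73 to −0.42 for Acadl/Acadvl between routes. With 3 against 4 libraries the exact test cannot go below 0.0571, so these miss the threshold by construction. With all libraries the exact permutation p was 0.0286 for each and 0.0857 after adjustment, which missed it too. The cause of the other shifts was not tested. Depth limits the lowest counts, those of Slc25a20.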

Other observations

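Of the ketone body genes, 4 of 5 listed could be tested, and 0 rose and 2 fell in each lymph node group, where 26.4% (lymphatic) and 27.8% (hematogenous) of all tested genes were called. The 2 in lymphatic libraries became 1 without any culture library, lymphatic 3 or hematogenous 3. Bdh1, which interconverts the ketone bodies, fell from 22.0 ± 1.87 CPM in culture to 11.7 ± 1.85 in lymphatic and 10.8 ± 2.83 in hematogenous libraries (log2 −0.92 ± 0.181 and −1.02 ± 0.185, edgeR adjusted p = 0.00204 and 0.000850). Acat1, the mitochondrial acetoacetyl-CoA thiolase, fell in hematogenous libraries (−0.49 ± 0.128, edgeR adjusted p = 0.0101), and Oxct1, which uses ketone bodies, fell in lymphatic libraries (−0.35 ± 0.118, edgeR adjusted p = 0.0412).

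Genes were also ranked by the likeness of their log2 CPM to that of 3 members over the 12 libraries, among 8090 genes of 10 CPM or more, as a description in which the points share their groups. Closest to Cpt1a were Sorl1 (25.5 CPM in lymphatic and 146 in hematogenous libraries), Ankib1 and Plekha2. Closest to Hadhb were Paics (630 and 435 CPM), an enzyme of purine synthesis, the chaperonin subunit Tcp1 and Nras. For Acadvl the closest were Lin52, Abhd10 and Sdhaf3, at a lower likeness (Pearson 0.766 at most, against 0.984 for Cpt1a and 0.978 for Hadhb).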
